A study of Mus musculus with 36 samples.

Results

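The 6 libraries described here compare RNA from newborn (P0.5) diaphragm of mice with and without Cre. They were taken by the labels' age, tissue and genotype from a series of 36 libraries. In the 3 Cre-positive libraries the genotype is ChAT-Cre;Ribo-tag, and in the 3 Cre-negative libraries it is Ribo-tag alone, so both groups carry the Ribo-tag allele. All 6 come from synapse-enriched muscle, and the RNA is the fraction purified through the HA tag, with no treatment given. The series also holds diaphragm of both genotypes at E15.5, P10 and adult age and Cre-positive spinal cord at the same ages, with 3 libraries per group. Adult means 2 months of age. Nothing in the labels tells if replicates were separate animals or pools, so p-values measure the spread between these samples, which may be technical.

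In a RiboTag mouse, Cre exchanges the last exon of the ribosomal protein gene Rpl22 for a version that carries an HA tag, so that ribosomes of the cells with Cre can be pulled down with their mRNA. ChAT-Cre is active in cells that express choline acetyltransferase. In muscle the motor axons that end on the fibres at neuromuscular junctions belong to such cells, and their cell bodies lie in the spinal cord. A Cre-negative animal makes no tagged ribosome, and its library holds what the purification takes up regardless. Rose and fell here therefore mean higher or lower than in that background, at a Benjamini-Hochberg adjusted p under 0.05 in limma, and not a change of expression in a cell. In RNA from a mixed tissue, fewer cells of a type and less RNA per cell cannot be told apart.

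The CPM of a gene are its reads per 1000000 reads of the library (M below stands for 1000000 reads). Values are listed in the order of replicates 1, 2 and 3, and differences are Cre-positive minus Cre-negative means of log2(CPM + 1). Recovered depth was 68.2, 79.4 and 77.0 M reads without Cre and 98.6, 86.0 and 98.9 M reads with Cre. Muscle transcripts were at the top in both groups: Mylpf, a fast myosin light chain, stood at 17983, 16785 and 16694 CPM without Cre and at 15459.8, 17728 and 15359.6 CPM with Cre. Acta1, skeletal alpha-actin, stood at 45131, 35081 and 36203 CPM without Cre and at 25486, 23568 and 25145 CPM with Cre. Muscle markers were thus abundant in all 6 libraries.

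Several libraries stood apart or close to another one. Cre-negative replicate 3 nearly equalled a mixture of Cre-negative replicates 1 and 2 with weights of 0.187 and 0.812, and 86.3% of genes lay between them. Its distance from that mixture was 3.10 times the counting error, while replicates 1 and 2 were 32.5 counting errors apart. Cre-positive replicate 1 lay 2.74 counting errors from a mixture with a weight of 0.966 on replicate 3 and 0.0339 on replicate 2. Cre-positive replicates 1 and 3 were only 2.89 counting errors apart, against 29.8 between replicates 2 and 3. At the other ages the furthest pair of a group was 22.4 (E15.5), 15.8 (P10) and 24.9 (adult) counting errors apart, while the main test uses 1 variance per gene for all ages. The 3 libraries of a group thus do not behave as equally distant replicates. A second fit therefore left out the intermediate library of each of the 8 diaphragm groups and is called the reduced fit below. Of 106 called genes examined by name, 30 were also called in it, and those given below are marked as called there.

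Y-linked genes, chosen after their values were seen, also separated the libraries. Eif2s3y stood at 113, 22.5 and 34.7 CPM without Cre and at 0.751, 25 and 0 CPM with Cre. Ddx3y stood at 47.3, 15.9 and 18.6 CPM without Cre and at 0.893, 26.1 and 0 CPM with Cre. Both were high in every Cre-negative library and in Cre-positive replicate 2, and at or near 0 in Cre-positive replicates 1 and 3. The part of sex in the differences below was not tested.

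Of 13853 genes tested, 1672 rose (12.1%) and 2172 fell (15.7%). Without the intermediate libraries of P0.5 alone, 1002 rose (7.26%) and 973 fell (7.05%), 14.3% in all. Of the 106 called genes examined by name, 22 lost their call there. They were Gfra1, Sncg, Tubb3, Nefm, Vamp1, S100b, Prx, Dok7, Chrnb1, Ttn, Myh3, Casq1, Tnni1, Tcap, Myl3 and Rpl22. The others were Eif2a, Sox6, Lcn2, Mcm2, Mcm7 and Ddx3y. The reduced fit called 89 genes higher (0.67%) and 19 lower (0.143%), together 0.813% of the genes tested, and 2335 genes had an unadjusted p under 0.05 there. Scaling by DESeq2's size factors (RLE) in place of library totals moved the median difference of all genes from -0.0062 to 0.21 and the calls to 2603 higher (18.8%) and 1295 lower (9.35%), 28.1% in all against 27.7%. With RLE scaling 9 of the 106 called genes examined by name lost their call, and each is marked as such. A fit of the P0.5 libraries alone called 629 genes higher (5.96%) and 623 lower (5.91%), 11.9% in all. Groups of 3 libraries did not overlap for 2888 tested genes on the higher side (20.8%) and for 2562 on the lower side (18.5%).

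The Cre-positive libraries held reads of many more genes. Of 18845 genes in the table, 46.2%, 37.6% and 35.2% had no read in the Cre-negative libraries and 18.6%, 30.9% and 19.6% had none in the Cre-positive libraries. In all, 1185 genes (6.29%) were at 0 in all 3 Cre-negative libraries and had reads in all 3 Cre-positive libraries, while 10 genes showed the opposite. Restricted to genes with at least 20 reads in each Cre-positive library at the depth of the smallest library, the number was 599. The difference was also present without the intermediate libraries, with 1269 genes against 15, and larger without Cre-positive replicate 2, with 2677 against 26. Levels were low: the 1185 genes had a median of 0.946 CPM, 573 reached a mean of 1 CPM and 35 reached 10 CPM. In P0.5 spinal cord 52.2% of these genes reached a mean of 1 CPM, against 66.9% of all genes in the table. At E15.5 the counts were 449 against 8, at P10 142 against 171 and in the adult 260 against 99. At each age every Cre-positive library was deeper than every Cre-negative one, at P10 with 94.0 to 98.4 against 87.8 to 93.7 M reads, and the part of depth in these counts was not tested.

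**Figure D1:**
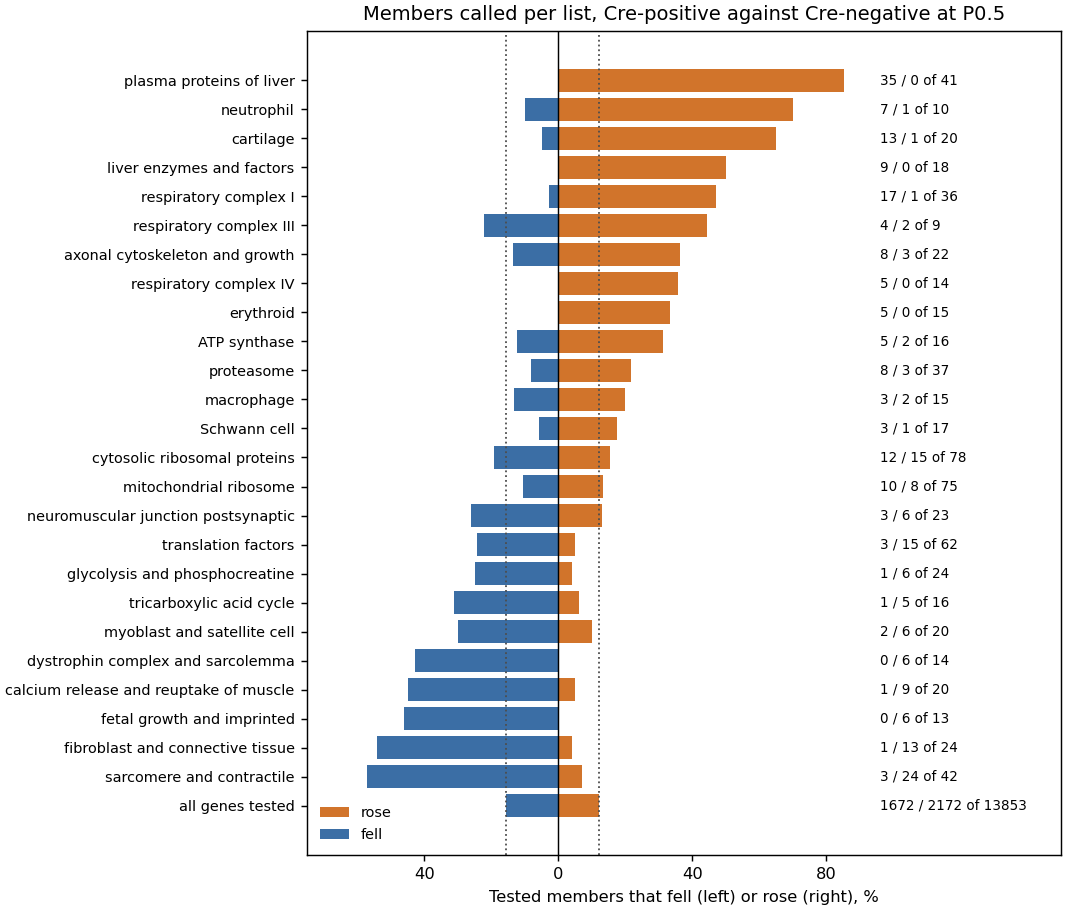
Share of the tested members of each gene list that fell (blue, to the left) or rose (orange, to the right) in Cre-positive against Cre-negative diaphragm at P0.5, in percent. The numbers at the right give rose / fell of tested members, and dotted lines mark the shares over all genes tested (12.1% rose, 15.7% fell). Liver, neutrophil and cartilage lists reach furthest to the right, and sarcomere, fibroblast and fetal growth lists furthest to the left.

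Chat, Slc18a3 and Mnx1, which mark motor neurons, were at or near 0 in both groups. Chat, choline acetyltransferase itself and the gene whose promoter names the Cre line, had 0 reads in all 6 libraries, while it stood at 11.5 ± 1.2 CPM (SD, n = 3) in P0.5 spinal cord. Slc18a3, the vesicular acetylcholine transporter, stood at 0, 0 and 0 CPM without Cre and at 0.0913, 0 and 0.0505 CPM with Cre, against 253 ± 20.6 CPM (SD, n = 3) in spinal cord. Slc5a7, the choline transporter of cholinergic terminals, stood at 1.92, 0 and 0.61 CPM without Cre and at 0.0101, 0 and 0 CPM with Cre. Mnx1, a homeobox gene of motor neurons, was at 0 in all 6 libraries. Together, 14 motor neuron and cholinergic genes took 0.000458, 0.00143 and 0.00115% of the library without Cre and 0.00103, 0.000978 and 0.000901% with Cre. Each Cre-positive share thus lay within the Cre-negative range, and the mean share in spinal cord was 0.332%. Of these 14 genes 6 passed the filter on low values, 1 rose and none fell, and 9 were at 0 in all 3 Cre-negative libraries. The member that rose was Gfra1, the GDNF co-receptor, at 0.0733, 0.0126 and 0 CPM without Cre and at 0.811, 1.78 and 0.617 CPM with Cre, and its adjusted p in the reduced fit was 0.325.

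Of 22 tested genes of the axonal cytoskeleton and of axon growth 8 rose, at low levels, and 3 fell, with a median difference of 0.68 against -0.0062 over all genes. These are 36.4% and 13.6%, where 12.1% and 15.7% of all genes were called. The number that rose depended on single libraries: it was 3 when Cre-positive replicate 1 was left out, and 5 when replicate 3 of either group was. Stmn4, a neuronal microtubule regulator, was at 0, 0 and 0 CPM without Cre and at 3.11, 4.62 and 2.44 CPM with Cre, which is at least 84.2-fold higher with Cre when the group at 0 is set to 3 reads per library. Sncg, gamma-synuclein of peripheral neurons, stood at 0, 0 and 0 CPM without Cre and at 7.95, 0 and 6.93 CPM with Cre. Sncg was thus present only in Cre-positive replicates 1 and 3, and it lost its call when any 1 library other than Cre-positive replicate 2 was left out (adjusted p from 0.0685 to 0.2), whereas Stmn4 was present in all 3. Tubb3, neuronal beta-tubulin, stood at 0.0587, 0 and 0 CPM without Cre and at 2.79, 0.616 and 2.46 CPM with Cre, against 1736 ± 22.9 CPM (SD, n = 3) in spinal cord. Nefm, the medium neurofilament, stood at 0, 0.063 and 0.039 CPM without Cre and at 1.28, 1.24 and 1.08 CPM with Cre, and the spinal cord held 2868 ± 178 CPM (SD, n = 3). Without Cre-positive replicate 1 the adjusted p of Nefm was 0.0548. Both genes were near 0 in the Cre-negative libraries and far below their spinal cord level in every Cre-positive one.

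Map1b, a microtubule-associated protein of growing axons, went the other way. It stood at 10.4, 15.1 and 13.7 CPM without Cre and at 3.65, 1.86 and 3.87 CPM with Cre, a difference of -1.80 ± 0.29 (SE; adjusted p = 0.000181). No axonal member was called in the reduced fit. Of 18 tested members of the synaptic vesicle and release list 1 rose and none fell, Vamp1, a vesicle SNARE of motor terminals. Vamp1 stood at 0, 0.0252 and 0 CPM without Cre and at 1.88, 0.151 and 1.95 CPM with Cre, high in Cre-positive replicates 1 and 3 and low in replicate 2. No member of the list rose without Cre-negative replicate 1 or 3 or Cre-positive replicate 1 or 3, and 3 fell without Cre-negative replicate 1. Vamp1 lost its call without any 1 library other than Cre-positive replicate 2 (adjusted p from 0.0591 to 0.152). Snap25, the SNARE of the presynaptic membrane, had at most 0.0606 CPM in any of the 6 libraries and 746 ± 49 CPM (SD, n = 3) in spinal cord.

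Schwann cells wrap motor axons and cap the junction, and few of their genes were called. Of 17 tested members 3 rose (17.6%) and 1 fell (5.88%), where 12.1% and 15.7% of all genes did. The list's share of the library was 0.0238, 0.0244 and 0.0248% without Cre and 0.0133, 0.0274 and 0.0122% with Cre. By share, Cre-positive replicates 1 and 3 were thus below every Cre-negative library and replicate 2 was above them. S100b, a calcium-binding protein of terminal Schwann cells, stood at 0.205, 0 and 0 CPM without Cre and at 2.71, 3.38 and 2.9 CPM with Cre. Prx, periaxin of myelinating Schwann cells, stood at 0, 0 and 0 CPM without Cre and at 1.29, 3.76 and 1.17 CPM with Cre. In both genes the groups did not overlap. The call of Prx was lost without any 1 of the Cre-negative libraries (adjusted p from 0.0537 to 0.0706) and without Cre-positive replicate 2 (0.132). When 1 P0.5 library was left out in turn, 1 to 4 members rose and 0 to 3 fell, so the list's direction rests on single libraries; without Cre-positive replicate 2 it was 1 and 3.

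Postsynaptic genes of the junction were split. Of 23 tested members 3 rose and 6 fell, with a median of -0.30, and 5 rose and 3 fell with RLE scaling. Without Cre-negative replicate 3 or Cre-positive replicate 1 the number that fell was 2, without Cre-positive replicate 3 it was 3, and without Cre-positive replicate 2 the list had 5 that rose and 8 that fell. Chrnd, the delta subunit of the muscle acetylcholine receptor, was at 2.95, 2.06 and 2.23 CPM without Cre and at 17, 17.5 and 14.6 CPM with Cre. All 3 Cre-positive libraries were close to each other and above the Cre-negative ones, with a difference of 2.35 ± 0.51 (SE; adjusted p = 0.00207) and an adjusted p of 0.167 in the reduced fit. Chrna1, the alpha subunit of the same receptor, was not called and stood at 17.7, 14.7 and 15.3 CPM without Cre and at 18.4, 17.7 and 17.1 CPM with Cre. Whether the subunits differ from each other was not tested.

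Lrp4, the agrin receptor on the muscle fibre, fell. It stood at 119, 39.5 and 55.7 CPM without Cre and at 5.59, 26.9 and 4.31 CPM with Cre, a difference of -2.72 ± 0.52 (SE; adjusted p = 0.000775). Utrn, utrophin of the postsynaptic membrane, stood at 12.2, 9.86 and 10.8 CPM without Cre and at 1.66, 6.27 and 1.47 CPM with Cre. In both genes the groups did not overlap, and Cre-positive replicate 2 was nearest to the Cre-negative libraries. Col13a1, a transmembrane collagen of the junction, rose and stood at 0.601, 0 and 0.039 CPM without Cre and at 1.44, 7.33 and 1.18 CPM with Cre. Dok7, the adaptor of the kinase MuSK, and Chrnb1, the receptor's beta subunit, fell, with differences of -1.56 and -1.28. Chrnb1 lost its call with RLE scaling (-0.87; adjusted p = 0.0612) and without any 1 library other than Cre-negative replicate 1 or Cre-positive replicate 2 (adjusted p from 0.056 to 0.081). Dok7 lost it without Cre-negative replicate 3 (0.0501) or Cre-positive replicate 1 (0.0534). None of these was called in the reduced fit.

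**Figure D2:**
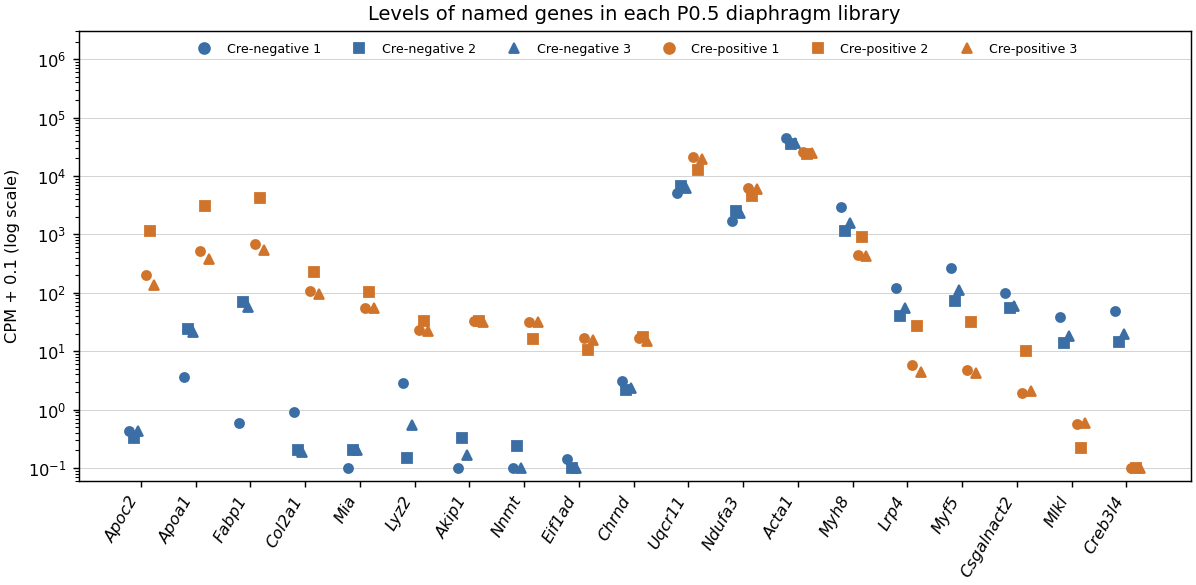
Level of 19 named genes in each of the 6 P0.5 libraries, on a log axis of CPM + 0.1; blue symbols are Cre-negative and orange symbols Cre-positive libraries, and the symbol gives the replicate. Apoc2, Col2a1 and Akip1 are separated by more than a factor of 30 between the groups, Acta1 by less than a factor of 2, and Creb3l4 is at 0 in all 3 Cre-positive libraries.

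Contractile genes of the fibre fell in a larger share than all genes. Of 42 tested sarcomere and contractile members 24 fell and 3 rose, with a median difference of -0.49, where 15.7% of all genes fell. With RLE scaling 10 fell and 7 rose, so the count on the lower side depends on the scaling. The list's share of the library was 22.2, 23.6 and 23.4% without Cre and 21.9, 21.2 and 22.2% with Cre.

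Myh8, the perinatal myosin heavy chain, was at 2925, 1149 and 1564 CPM without Cre and at 436, 891 and 428 CPM with Cre. Cre-negative replicate 1 was highest and Cre-positive replicates 1 and 3 were lowest, and the difference was -1.66 ± 0.29 (SE; adjusted p = 0.000296). Myh3, the embryonic myosin heavy chain, stood at 220.1, 56.8 and 91.6 CPM without Cre and at 21.7, 75.8 and 18.4 CPM with Cre, so that Cre-positive replicate 2 overlapped with the Cre-negative range. Ttn, titin, the molecular spring of the sarcomere, stood at 52.3, 23.7 and 29.2 CPM without Cre and at 5.64, 23.4 and 4.92 CPM with Cre. Neb, nebulin of the thin filament, was at 153, 90.3 and 101 CPM without Cre and at 26.3, 64.5 and 24.5 CPM with Cre. Titin and nebulin both fell, to the lowest levels in Cre-positive replicates 1 and 3. Without the intermediate libraries of P0.5 the limma calls of Ttn and Myh3 were lost (adjusted p = 0.0565 and 0.0577). Xirp2, an actin-binding repeat protein of striated muscle, had the largest decrease of the list, -2.26 ± 0.36 (SE; adjusted p = 0.00014), at 51.8, 47.4 and 48 CPM without Cre and at 6.15, 23.8 and 5.41 CPM with Cre. Acta1 itself fell by 0.64, the only list member among the 19 genes lower in the reduced fit (adjusted p = 0.0254). Its difference with RLE scaling was -0.21 (adjusted p = 0.263), so the call was lost under that scaling.

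Not all contractile genes were lower. The members that rose were Tnni1 (slow troponin I, 0.39), Tcap (telethonin, 0.39) and Myl3 (slow myosin light chain, 0.65). No sarcomere member rose without Cre-positive replicate 1 or 3, 1 did without Cre-negative replicate 1, and none did without the intermediate libraries of P0.5, where the adjusted p of these 3 were 0.125, 0.0809 and 0.126. Tnnc1, Tnnc2, Tnni2 and Myl2 were not called, with differences between 0.02 and 0.32. Sln, sarcolipin, the small inhibitor of the calcium pump, rose and stood at 7793, 13869 and 12769 CPM without Cre and at 23093, 14104 and 23173 CPM with Cre. It was the 1 gene that rose among 20 genes of calcium release and reuptake (5%), of which 9 fell (45%). Over all genes 12.1% rose and 15.7% fell. Trdn, triadin of the release complex, stood at 396, 430.5 and 416 CPM without Cre and at 111, 235 and 111 CPM with Cre, and Casq1, calsequestrin, at 1249, 892 and 999.6 CPM without Cre and at 559, 589 and 537 CPM with Cre. The groups did not overlap for either gene, but with RLE scaling Casq1 was not called (-0.46; adjusted p = 0.164). With RLE scaling 2 members of the calcium list fell and 3 rose, and without Cre-positive replicate 1 or 3 the number that fell was 5.

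The dystrophin complex and the sarcolemma had 6 of 14 members that fell (42.9%) and none that rose, where 15.7% and 12.1% of all genes did. With RLE scaling 2 fell and 1 rose, and without Cre-positive replicate 3 the number that fell was 3. Sgcd, delta-sarcoglycan, stood at 53.6, 29.4 and 34.3 CPM without Cre and at 9.87, 13.4 and 9.63 CPM with Cre. Dag1, dystroglycan, stood at 33.6, 33.7 and 32.7 CPM without Cre and at 16.9, 15.8 and 17 CPM with Cre. Dag1 was nearly constant within each group and differed by -0.97 ± 0.22 (SE; adjusted p = 0.00289). With RLE scaling its difference was -0.55 and the call was lost (adjusted p = 0.0501). Myogenic factors and markers of myoblasts and satellite cells fell in 6 of 20 tested members and rose in 2 (1 when a single Cre-positive library was left out), and the same counts on the lower side came with RLE scaling and without the intermediate libraries of P0.5.

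Myf5, a myogenic transcription factor of muscle precursors, had the largest decrease of any list member. It stood at 269.7, 72.1 and 112 CPM without Cre and at 4.62, 31.5 and 4.11 CPM with Cre, a difference of -3.74 ± 0.60 (SE; adjusted p = 0.000162). All Cre-negative libraries were above all Cre-positive ones, and replicate 2 of the Cre-positive group was the highest of its 3. Chodl, chondrolectin, stood at 144, 39.1 and 59.5 CPM without Cre and at 11, 15.7 and 11.2 CPM with Cre. Mstn, myostatin, the secreted inhibitor of muscle growth, stood at 91.7, 19.3 and 31.6 CPM without Cre and at 5.37, 15.8 and 6.25 CPM with Cre. Pax7, the defining factor of satellite cells, was not called, at 0, 5.94 and 5.05 CPM without Cre and at 0.649, 0.768 and 0.778 CPM with Cre. The list took 0.144, 0.0946 and 0.105% without Cre and 0.0361, 0.0559 and 0.0354% with Cre of the library, with no overlap. Myod1 and Myog, myogenic factors of the same family as Myf5, differed by -0.26 and 0.34 and were not called.

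**Figure D3:**
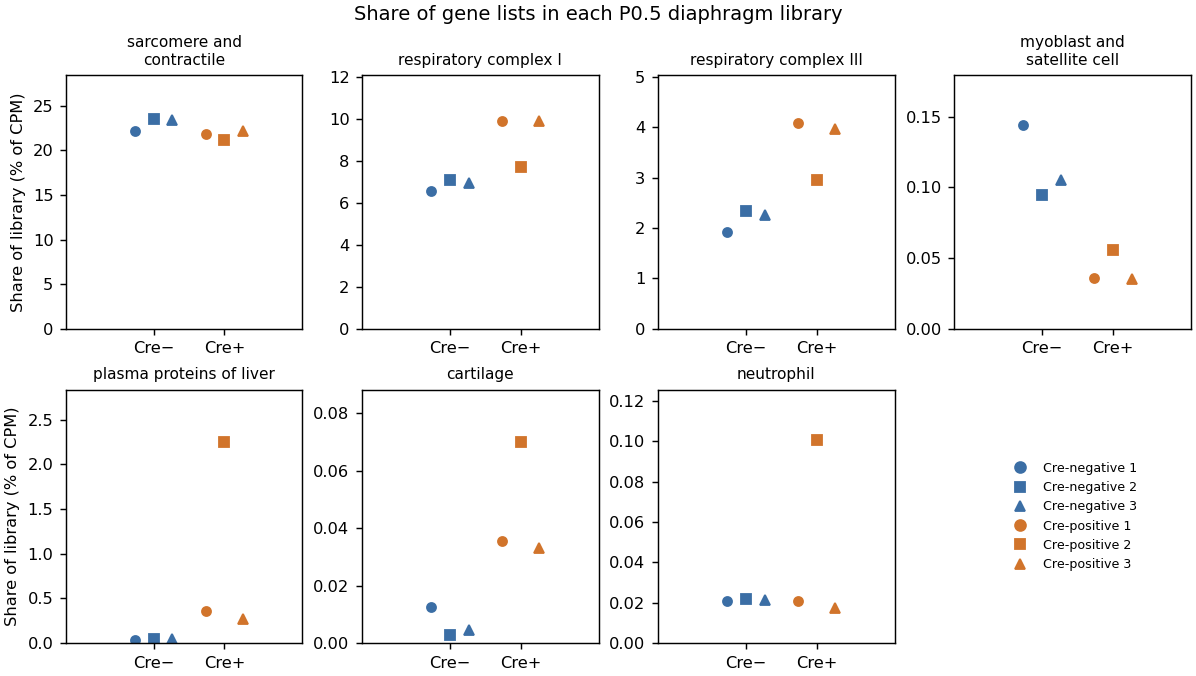
Share of each of the 6 P0.5 libraries taken by 7 gene lists, in percent of CPM, with each axis starting at 0; symbols give the replicate and colours the genotype. Complex I and III and the liver, cartilage and myoblast lists do not overlap between the groups, while the neutrophil share is raised in Cre-positive replicate 2 alone.

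Of 36 tested genes of respiratory complex I 17 rose (47.2%, against 12.1% of all genes), and a few genes of complexes III and IV and of the ATP synthase rose with them. The respiratory chain in the inner mitochondrial membrane passes electrons through complexes I to IV, and the ATP synthase uses the resulting proton gradient. In complex I 1 member fell (3 without Cre-negative replicate 1 or 2) and 18 were not called, with a median of 0.43, complex III had 4 of 9 that rose and 2 that fell, and complex IV had 5 of 14 that rose and none that fell. Complex II had 0 of 4 in either direction, and the ATP synthase had 5 that rose and 2 that fell of 16, with medians of -0.33 and -0.07. With RLE scaling 26 members rose in complex I, 7 in complex III, 8 in complex IV and 7 in the ATP synthase, and none of these fell. Over all genes 18.8% rose and 9.35% fell with that scaling. With quantile scaling 12 rose and 2 fell in complex I, 3 and 2 each in complexes III and IV, and 2 and 4 in the ATP synthase. The ATP synthase had 3 and 4 without Cre-negative replicate 1, and 3 and 2 when replicate 1 or 3 with Cre was left out. The share of complex I was 6.55, 7.08 and 6.96% without Cre and 9.89, 7.73 and 9.88% with Cre.

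Uqcr11, a small subunit of complex III, had the largest rise of these lists. It stood at 5191, 6733 and 6228 CPM without Cre and at 20924, 12772 and 19712 CPM with Cre, a difference of 1.53 ± 0.13 (SE; adjusted p = 1.65e-07), with an adjusted p of 0.00109 in the reduced fit. Ndufa3, an accessory subunit of complex I, stood at 1697, 2471 and 2343 CPM without Cre and at 6099, 4561 and 6076 CPM with Cre, with an adjusted p of 0.00109 there. All 3 Cre-positive libraries were above all Cre-negative ones for both genes, and replicate 2 was the lowest of its group. Ndufb8, Ndufa1 and Cox6a1, subunits of complexes I and IV, were also called in the reduced fit, with adjusted p of 0.0219, 0.0427 and 0.0425. Uqcrc2, a large core subunit of complex III, went the other way, from 420.2, 419 and 419 to 232, 263 and 233 CPM, a difference of -0.79 ± 0.11 (SE; adjusted p = 4.64e-05) that was -0.36 (adjusted p = 0.0711) with RLE scaling. The call of Uqcrc2 was lost under that scaling.

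Other mitochondrial pathways moved less evenly, and their counts stand beside 12.1% that rose and 15.7% that fell over all genes. In the tricarboxylic acid cycle 5 of 16 members fell and 1 rose, while with RLE scaling none fell and 1 rose, and without Cre-positive replicate 1 or 3 the number that fell was 2, without Cre-negative replicate 3 it was 3. The member that rose was Idh2, the NADP-dependent isocitrate dehydrogenase, at 424, 570.4 and 553 CPM without Cre and at 1376, 763 and 1304 CPM with Cre. Fatty acid oxidation had 5 of 18 members that rose and 3 that fell, numbers that were 2 and 6 without Cre-negative replicate 1, 7 and 1 without Cre-negative replicate 2 or 3, and 2 and 1 without Cre-positive replicate 1 or 3. Decr1, a dienoyl-CoA reductase, stood at 26, 53.9 and 50.0 CPM without Cre and at 115, 103 and 117 CPM with Cre, and Etfb, an electron transfer flavoprotein, at 1116, 1946 and 1862 CPM without Cre and at 4119, 2285 and 4139 CPM with Cre. Both rose without overlap. Mitochondrial ribosomal proteins rose in 10 and fell in 8 of 75, but with RLE scaling 25 rose and 1 fell, where 18.8% and 9.35% of all genes did. Without Cre-positive replicate 1 or 3 the number that rose was 6, and the number that fell was 2 without Cre-positive replicate 2 and 3 without Cre-negative replicate 3. In glycolysis and phosphocreatine use 6 of 24 members fell and 1 rose, and the balance turned with RLE scaling, where 2 fell and 7 rose. Ckm, muscle creatine kinase, stood at 9264, 7863 and 8220.0 CPM without Cre and at 6051, 6602 and 5971 CPM with Cre, and its fall by 0.44 was -0.01 (adjusted p = 0.97) with RLE scaling, so the call was lost.

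Genes of the ribosome and of translation were also examined. Whether their levels bear on what the purification took up was not tested. Rpl22, the gene of the tagged protein, stood at 18.4, 41.8 and 37.8 CPM without Cre and at 17.1, 12.6 and 17.6 CPM with Cre, a difference of -0.94 ± 0.25 (SE; adjusted p = 0.00805) that was not called with RLE scaling (-0.53; adjusted p = 0.187). Of 78 cytosolic ribosomal protein genes 12 rose (15.4%) and 15 fell (19.2%), where 12.1% and 15.7% of all genes did. With RLE scaling 35 rose and none fell, where 18.8% and 9.35% of all genes did. The number that fell was 6 without Cre-positive replicate 1 or 3 and 27 without Cre-positive replicate 2. Of 62 translation factors 15 fell and 3 rose, the Y-linked Eif2s3y among those that fell, and with RLE scaling 7 fell and 10 rose. Without Cre-positive replicate 3 the number that fell was 9. The direction of both families thus depends on the scaling.

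Eif1ad, an eIF1A-like protein, stood out from the translation factors. It had 3 reads in Cre-negative replicate 1, none in the other replicates of that group, and stood at 16.8, 10.3 and 15.3 CPM with Cre. The difference was 3.87 ± 0.29 (SE; adjusted p = 1.56e-08), and the adjusted p was 0.00799 in the reduced fit. Eif2a, an alternative initiator tRNA carrier, fell and stood at 26.7, 20.3 and 20.1 CPM without Cre and at 6.11, 13.5 and 5.6 CPM with Cre. The proteasome had 8 of 37 members that rose (21.6%) and 3 that fell (8.11%), where 12.1% and 15.7% of all genes did. With RLE scaling 17 rose and none fell, where 18.8% and 9.35% of all genes did. Without Cre-negative replicate 3 or Cre-positive replicate 1 the number that fell was 1. Psmd9, an assembly chaperone of the regulatory particle, stood at 3.58, 2.61 and 2.78 CPM without Cre and at 13.2, 15.1 and 13.7 CPM with Cre. Psmd9 was raised about equally in all 3 Cre-positive libraries.

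Liver transcripts, with those of cartilage, had the largest rises of the comparison. Hepatocytes secrete most plasma proteins, and the liver lies against the diaphragm. Of 41 tested plasma protein genes 35 rose and none fell, with a median difference of 3.56 and equally 3.56 when the 5 members at 0 without Cre are set to 3 reads per library. In the reduced fit 16 of 41 rose, and without Cre-positive replicate 2 the number was 29. The list's share was 0.0348, 0.0419 and 0.0408% without Cre and 0.361, 2.25 and 0.263% with Cre. Replicate 2 carried most of it, but replicates 1 and 3 also lay above every Cre-negative library.

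Upstream sequences of 3 of these genes are shown as examples, from RefSeq with build GRCm38.p6, 250 bases before the annotated start, 5' to 3' on the gene's strand. Capitals mark matches on either strand to TTGCNNAA (the C/EBP motif), GTTAATNA (HNF1), CAAAGTCCA (HNF4) or TATAAA (the TATA box), which are binding motifs of factors active in liver, or of the general transcription machinery for the last. They lie at chr5:90490464-90490713 (+ strand), chr6:71199629-71199878 (+ strand) and chr7:105600117-105600366 (- strand).
Afp: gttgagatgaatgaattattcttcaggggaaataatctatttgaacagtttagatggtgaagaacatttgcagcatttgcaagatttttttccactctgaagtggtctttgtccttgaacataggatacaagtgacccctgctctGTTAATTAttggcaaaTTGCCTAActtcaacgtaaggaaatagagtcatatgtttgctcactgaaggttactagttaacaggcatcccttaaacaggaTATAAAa
Fabp1: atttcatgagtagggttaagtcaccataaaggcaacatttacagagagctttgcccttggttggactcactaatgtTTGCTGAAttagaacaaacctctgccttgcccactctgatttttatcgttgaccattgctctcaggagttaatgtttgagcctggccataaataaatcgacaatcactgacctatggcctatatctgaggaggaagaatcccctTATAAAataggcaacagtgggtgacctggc
Hpx: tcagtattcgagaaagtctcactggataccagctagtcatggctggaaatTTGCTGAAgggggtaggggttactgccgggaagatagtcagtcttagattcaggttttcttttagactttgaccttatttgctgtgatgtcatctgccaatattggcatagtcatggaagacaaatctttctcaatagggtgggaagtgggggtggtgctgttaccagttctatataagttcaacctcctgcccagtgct
Of the 44 plasma protein and liver enzyme genes that rose, 35 had a promoter entry. The C/EBP motif was present in 31.4% of these, against 7.82% of 10994 promoters of genes tested. The HNF1 motif was in 7 of 35 promoters against 1.56% of all, the HNF4 motif in 0 of 35 against 0.373%, and TATAAA in 17.1% against 7.18%. The matches at Afp begin 105 (HNF1), 89 (C/EBP) and 7 (TATA box) bases before the start. They describe letters in these windows and not bound sites, and motif matches within the Afp window do not overlap. The 35 promoters belong to lists drawn up as liver genes, and list members that did not rise were not counted. The motif shares thus describe genes chosen as liver genes and do not bear on the rise at P0.5.

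Apoc2, the activator of lipoprotein lipase, had the largest rise of all genes named. It stood at 0.323, 0.227 and 0.325 CPM without Cre and at 202, 1124 and 137 CPM with Cre, a difference of 7.93 ± 0.50 (SE; adjusted p = 1.47e-09), with an adjusted p of 0.000124 in the reduced fit. Apoa1, the main protein of HDL, stood at 3.48, 23.5 and 21.4 CPM without Cre and at 511, 3031 and 385 CPM with Cre. Fabp1, the fatty acid carrier of hepatocytes, stood at 0.484, 70.7 and 56.3 CPM without Cre and at 685, 4230.5 and 541 CPM with Cre. Apoa1 was called in the reduced fit, while Fabp1 was not (adjusted p = 0.0529). For each of the 3 genes Cre-positive replicate 2 was several times above replicates 1 and 3. Alb, albumin, stood at 34.9, 32.5 and 31.4 CPM without Cre and at 326, 2229.5 and 225 CPM with Cre, and its adjusted p in the reduced fit was 0.0529. Afp, the fetal plasma protein of the first sequence, stood at 1.39, 20.8 and 17.8 CPM without Cre and at 130.1, 1501 and 74.6 CPM with Cre. Hpx, hemopexin of the third sequence, was at 0 without Cre and at 21.2, 94.4 and 17.8 CPM with Cre, at least 1105-fold higher, or 485-fold without Cre-positive replicate 2. Afp and Hpx were called in the reduced fit, with adjusted p of 0.0254 and 0.0148.

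Apoc4 and Apoa4 rose by 6.18 and 5.78, and Apoa2 and Ttr, transthyretin, by 5.48 and 5.84, and these 4 were called in the reduced fit. Serpina1a to Serpina1e are near-identical copies whose reads can be split among them, so their 5 calls are uncertain as to the gene. Liver enzymes and factors rose in 9 of 18 tested members and fell in none. Hpd, an enzyme of tyrosine breakdown, stood at 0.088, 0.0378 and 0 CPM without Cre and at 6.11, 25 and 5.36 CPM with Cre. It was called in the reduced fit, with an adjusted p of 0.0254. Cps1 and Arg1, urea cycle enzymes of the hepatocyte, differed by 1.33 and 1.46 and were not called.

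Cartilage genes rose to a like extent at lower levels. Of 20 tested members 13 rose and 1 fell, with a median of 2.92 and equally 2.92 with 6 members at 0 without Cre set to 3 reads per library. In the reduced fit 4 of 19 rose. Col2a1, the main collagen of cartilage, stood at 0.792, 0.101 and 0.0909 CPM without Cre and at 106, 227 and 96.5 CPM with Cre, a difference of 6.69 ± 0.94 (SE; adjusted p = 4.67e-05) that was called in the reduced fit (adjusted p = 0.0296). Mia, a secreted cartilage protein, stood at 0, 0.101 and 0.104 CPM without Cre and at 54.4, 102 and 53.7 CPM with Cre, and was called there too (adjusted p = 0.0183). Ucma, the unique cartilage matrix protein, was at 0, 0.0755 and 0 CPM without Cre and at 52.7, 53.9 and 48.9 CPM with Cre, with an adjusted p of 0.0603 in the reduced fit. All 3 were high in every Cre-positive library, and Cre-positive replicate 2 was highest for each. Acan, aggrecan, stood at 0, 0.227 and 0.182 CPM without Cre and at 5.83, 5.95 and 5.71 CPM with Cre, and Matn1, matrilin, was at or near 0 in all 6 libraries. Sox9, the factor that specifies chondrocytes, was not called, with a difference of -0.60, and Sox6 fell, with a difference of -1.10. Sox6 lost its call with RLE scaling (-0.72; adjusted p = 0.0936) and without Cre-negative replicate 3 or Cre-positive replicate 1 or 3 (adjusted p from 0.0681 to 0.0734).

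Genes of fibroblasts and connective tissue went the other way. Of 24 tested members 13 fell and 1 rose, with a median of -0.76, and 8 fell and 2 rose with RLE scaling. Without Cre-positive replicate 1 the number that fell was 8, and with 1 library left out the number that rose was 0 or 2. Fn1, fibronectin, was at 98.5, 27.7 and 43.7 CPM without Cre and at 9.08, 28.3 and 7.83 CPM with Cre, with Cre-positive replicate 2 inside the Cre-negative range. Col1a1, the main chain of type I collagen, stood at 1846, 683 and 895 CPM without Cre and at 388, 554 and 378 CPM with Cre. Postn, periostin, stood at 1089.6, 339 and 471 CPM without Cre and at 168, 256 and 171 CPM with Cre, and Fbn2, the fetal fibrillin, at 72.1, 38.5 and 43.7 CPM without Cre and at 12.5, 19 and 12.5 CPM with Cre. For the last 3 genes the groups did not overlap, and Cre-negative replicate 1 was the highest library.

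Blood cell genes varied with the library, and their counts stand beside 12.1% that rose and 15.7% that fell over all genes. Neutrophil granule genes rose in 7 of 10 members and fell in 1, and 5 to 7 rose when 1 library was left out in turn. The list's share was 0.0209, 0.0218 and 0.0213% without Cre and 0.0209, 0.1 and 0.0171% with Cre. By share, only Cre-positive replicate 2 was thus above the background. Ngp, a granule protein of neutrophil precursors, stood at 0 without Cre and at 8.65, 25.3 and 8.63 CPM with Cre, at least 352-fold higher, or 215-fold without Cre-positive replicate 2, and its adjusted p was 0.0219 in the reduced fit. S100a9, a calcium-binding protein of neutrophils, stood at 0.22, 36 and 26.3 CPM without Cre and at 58.6, 289 and 38.2 CPM with Cre, and its call was lost without Cre-negative replicate 1 (adjusted p = 0.0852) or Cre-positive replicate 2 (0.0902). Lcn2, lipocalin, fell, with a difference of -2.37. Macrophage genes were divided, with 3 that rose and 2 that fell of 15, and 4 that fell without Cre-negative replicate 2 and 1 without Cre-negative replicate 1 or Cre-positive replicate 1 or 3. Lyz2, lysozyme, stood at 2.7, 0.0504 and 0.455 CPM without Cre and at 23.1, 32.7 and 21.7 CPM with Cre and was called in the reduced fit (adjusted p = 0.00603). Aif1, an actin-binding protein of macrophages, was at 0 without Cre and at 9.11, 23.3 and 8.92 CPM with Cre, with an adjusted p of 0.0846 in the reduced fit. F13a1, a marker of resident macrophages, fell and stood at 22.4, 18.2 and 20.8 CPM without Cre and at 3.37, 5.68 and 3.57 CPM with Cre, while C1qa and Csf1r were not called, with differences of 0.04 and -0.93.

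Erythroid genes rose in 5 of 15 members (33.3%) and fell in none, where 12.1% and 15.7% of all genes did. The number that rose was 1 without Cre-positive replicate 2 and 3 without any 1 of the Cre-negative libraries. Hbb-bt, an adult beta-globin with a near-identical neighbour, stood at 317, 601 and 533 CPM without Cre and at 658, 1454 and 679 CPM with Cre. Alas2, the first enzyme of heme synthesis in red cells, stood at 0.0587, 1.51 and 1.27 CPM without Cre and at 4.42, 10.7 and 3.99 CPM with Cre. The call of Hbb-bt was lost without Cre-negative replicate 1 (adjusted p = 0.0975) or Cre-positive replicate 2 (0.131). Both were highest in Cre-positive replicate 2, the library with the highest liver share. Fetal growth genes fell in 6 of 13 members and rose in none. With RLE scaling, without the intermediate libraries of P0.5, and without Cre-positive replicate 1 or 3, 3 fell. Plagl1, an imprinted transcription factor, stood at 212, 412 and 369.6 CPM without Cre and at 83.2, 238 and 70.7 CPM with Cre, and Grb10, an imprinted adaptor of insulin signalling, at 212, 175 and 179 CPM without Cre and at 56.6, 115 and 56.1 CPM with Cre. Igf2, the fetal growth factor, was not called, at 1465, 1973 and 1943 CPM without Cre and at 906, 2211 and 801 CPM with Cre, with replicate 2 of the Cre-positive group at the top.

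Cell cycle genes were called in shares near those of all genes. Of 29 tested members 4 rose and 4 fell (13.8% each), where 12.1% and 15.7% of all genes did. Both numbers rest on single libraries. Leaving out replicate 1 or 3 with Cre gave 1 that fell, leaving out replicate 1 or 2 without Cre gave 2 or 7, and 2 rose when replicate 1 with Cre was left out. Mcm5, a subunit of the replicative helicase, stood at 0.572, 0.541 and 0.442 CPM without Cre and at 8.45, 10.6 and 6.99 CPM with Cre, and Top2a, the topoisomerase of dividing cells, at 23.9, 13.8 and 16.2 CPM without Cre and at 3.49, 7.75 and 2.96 CPM with Cre. Mcm2 and Mcm3, further helicase subunits, rose by 1.77 and 2.14, while Mcm7 fell, with a difference of -1.19. Mcm2 lost its call without Cre-positive replicate 1 (adjusted p = 0.0504) or 3 (0.0541). Mcm7 lost it with RLE scaling (-0.81; adjusted p = 0.0783) and without any 1 library other than Cre-negative replicate 1 or Cre-positive replicate 2 (adjusted p from 0.0551 to 0.0807). Counts of other lists, of cell types and processes, stand beside 12.1% that rose and 15.7% that fell over all genes. More than 12.1% rose in sensory neurons (33.3%), adipocytes (22.2%), mast cells (20%), cholesterol synthesis (18.8%), antigen presentation (13.3%), mesothelium (12.5%) and skin epithelium (12.5%). More than 15.7% fell in smooth muscle and pericytes (28.6%), bone (20%) and mast cells (20%). The other shares of these lists were lower. Bone had 0 of 5 that rose and 1 that fell, mesothelium 1 and 0 of 8, endothelium 0 and 1 of 14, smooth muscle and pericytes 0 and 2 of 7, and adipocytes 2 and 0 of 9. Mast cells had 1 and 1 of 5, pancreas 1 and 0 of 14, lung epithelium 0 and 0 of 3, skin epithelium 1 and 0 of 8, and sensory neurons 2 and 0 of 6. Antigen presentation had 2 and 2 of 15, cholesterol synthesis 3 and 1 of 16, and metallothioneins 0 and 0 of 3. These counts rest on single libraries: over all lists, 58 of 90 counts moved by over 1.5 times when 1 of the 6 libraries was left out. Immediate early genes rose in 4 and fell in 5 of 20 members, with 3 that fell without Cre-positive replicate 1 or 3 and 2 that rose without Cre-positive replicate 2. Klf6 stood at 130.1, 50.2 and 64.8 CPM without Cre and at 19.5, 36.3 and 17.1 CPM with Cre, and Ier3 at 5.54, 3.64 and 4.13 CPM without Cre and at 16.7, 21.6 and 15.3 CPM with Cre, without overlap in either. Hspb1, a small heat shock protein of muscle, fell and stood at 1332, 771 and 905 CPM without Cre and at 492, 564 and 490.1 CPM with Cre, among 4 of 17 chaperones that fell and 1 that rose, numbers that turned to 2 and 4 with RLE scaling. None of these was called in the reduced fit.

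Of the calls in the reduced fit, 31 of the 89 higher and 1 of the 19 lower were on a list, and the others were not. Akip1, a partner of protein kinase A, stood at 0, 0.227 and 0.0649 CPM without Cre and at 33.3, 33.3 and 31.5 CPM with Cre, a difference of 4.95 ± 0.24 (SE; adjusted p = 2.76e-11), with an adjusted p of 0.000193 in the reduced fit. It was almost equal in the 3 Cre-positive libraries. Ing4, a chromatin reader of the inhibitor of growth family, stood at 0.425, 0.617 and 0.364 CPM without Cre and at 21.9, 24 and 22.1 CPM with Cre. Nnmt, a methyltransferase that uses nicotinamide, stood at 0, 0.139 and 0 CPM without Cre and at 31.6, 15.9 and 31.5 CPM with Cre, and Mthfs, an enzyme of folate metabolism, at 0.147, 0 and 0 CPM without Cre and at 17.5, 54.7 and 16.9 CPM with Cre. Tmem176a, a membrane protein of immune cells among others, stood at 0.675, 0.214 and 1.47 CPM without Cre and at 40.1, 46.2 and 38.4 CPM with Cre. For these 4 genes the adjusted p in the reduced fit was 0.00109, 0.00243, 0.00243 and 0.00109. Ing4, Akip1 and Tmem176a also had 28.8 to 62.1 CPM in spinal cord. These 5 genes were picked from the calls of the reduced fit after their values were seen.

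Genes outside the lists also fell. Creb3l4, a transcription factor held in the endoplasmic reticulum, stood at 48.5, 14.1 and 19.5 CPM without Cre and at 0, 0 and 0 CPM with Cre, at least 858-fold lower with Cre, or 526-fold without Cre-negative replicate 1, and its adjusted p was 0.00401 in the reduced fit. Mlkl, the effector of necroptosis, stood at 39, 13.4 and 18 CPM without Cre and at 0.456, 0.116 and 0.495 CPM with Cre. Csgalnact2, an enzyme of chondroitin sulfate chains, stood at 99.97, 54 and 60.4 CPM without Cre and at 1.84, 9.92 and 1.95 CPM with Cre. These 3 genes had no overlap between the groups. Usp18, a protease that removes ISG15, stood at 26.5, 8.57 and 12.8 CPM without Cre and at 0.609, 0 and 0.657 CPM with Cre. Cyp7b1, a steroid hydroxylase, Mppe1, Gem, a small GTPase, Prune2 and Etv3, a transcriptional repressor, also fell, with differences of -3.65, -3.63, -3.58, -3.46 and -3.29. Mlkl, Csgalnact2 and Usp18 were called in the reduced fit, and the last 5 were not.

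The shares of genes that rose and that fell differed with genomic span. A span, from the first to the last base of the RefSeq gene with introns included, was available for 13814 of 13853 tested genes. The genes were ordered by span in 5 groups of near-equal size. In the group with the shortest spans, up to 7.67 kb, 18.8% rose and 10.1% fell, with a median difference of 0.16. In the group with the longest spans, over 68.3 kb, 6.62% rose and 23.4% fell, with a median of -0.38. The share that rose declined and the share that fell grew over all 5 groups. With RLE scaling the shortest group had 28.0% that rose and 5.03% that fell, and the longest had 10.6% and 15.6%. Without the intermediate libraries of P0.5 they were 12.1% and 4.60%, and 3.40% and 10.9%. At E15.5 the shortest group had 8.18% that rose and 4.74% that fell, and the longest had 2.06% and 8.14%. At P10 the longest group had 0.253% that rose and 0.869% that fell, against 0.615% and 1.09% in the shortest. In the adult the longest group had 1.48% that rose and 7.96% that fell, against 6.23% and 8.14% in the shortest.

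Libraries also differed within groups in this respect. The longest group took 4.78%, 3.49% and 3.72% of the CPM of tested genes without Cre and 2.11%, 2.93% and 2.07% with Cre. Cre-positive replicate 2 thus lay between its group and the Cre-negative libraries. Ttn, Neb, Utrn and Map1b, which fell, are in the longest group, and Uqcr11, Ndufa3 and Sln, which rose, are in the shortest. These are examples that follow the trend: 10.1% of the shortest group fell and 6.62% of the longest rose. The part of span in the gene group results was not tested.

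**Figure D4:**
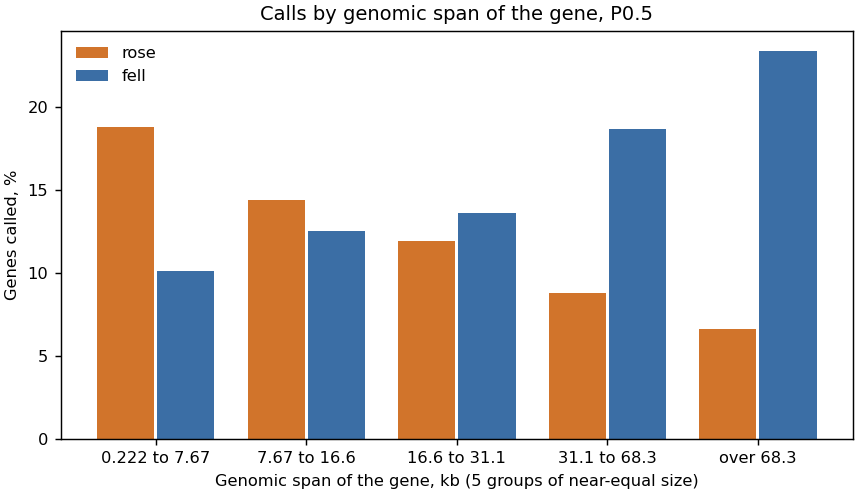
Percent of tested genes that rose (orange) or fell (blue) at P0.5 in 5 near-equal groups of genes ordered by genomic span in kb. The share that rose declines from 18.8% to 6.62%, and the share that fell grows from 10.1% to 23.4%.

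The same contrast was available at E15.5, P10 and adult age. The difference at P0.5 was tested against those at E15.5 and P10, and not against the adult one. The shares of all genes that rose and fell were 4.88% and 6.11% at E15.5, 0.419% and 1.03% at P10. Adult shares were 3.06% and 8.92%. The difference at P0.5 was unlike that at E15.5 for 1371 genes (9.90%) and unlike that at P10 for 1430 genes (10.3%), by the interaction term of the same fit. Without the intermediate libraries of both ages the numbers were 115 (0.851%) and 62 (0.452%). Each age has its own control libraries, but both interaction terms use the 6 libraries of P0.5.

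Plasma protein genes of the liver differed between ages in level as well as in contrast. Their share at E15.5 was 3.04, 2.94 and 2.98% without Cre and 2.62, 2.2 and 2.56% with Cre, with 2 members that rose of 41. At P10 it was 0.00842, 0.0507 and 0.0285% without Cre and 0.0427, 0.145 and 0.0823% with Cre, with 2 that rose. In the adult it was 0.0156, 0.0149 and 0.0158% without Cre and 0.0823, 0.0419 and 0.0544% with Cre, without overlap, and 14 of 41 rose, 34.1%. A higher level with Cre was thus also present in the adult. At E15.5 every library thus had a larger share than each P0.5 library, except that Cre-positive replicate 2 at P0.5 was slightly above Cre-positive replicate 2 at E15.5, and all Cre-positive libraries at E15.5 lay below the Cre-negative ones. The interaction term was called higher at P0.5 for 31 of 41 members and lower for 1 against E15.5, and higher for 12 against P10. The interaction term for Apoc2 was 7.46 ± 0.71 (SE; adjusted p = 3.29e-06) against E15.5 and 7.88 ± 0.71 (SE; adjusted p = 7.25e-07) against P10. For Apoa1 it was 6.18 ± 1.24 (SE; adjusted p = 0.00358) against E15.5, while against P10 it was not called, at 3.50 ± 1.24 (SE; adjusted p = 0.0758).

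Cartilage genes behaved otherwise. They had 16 of 20 members that rose at E15.5 and none at P10 or in the adult. Against E15.5 the interaction term was called for 1 member, lower at P0.5, and against P10 for 9, all higher at P0.5. Col2a1 differed by 5.13 at E15.5, 6.69 at P0.5 and -1.56 at P10, and the interaction term against P10 was 8.25 ± 1.32 (SE; adjusted p = 0.000743). Complex I had 10 of 36 members that rose at E15.5, none at P10 and 6 in the adult, and the interaction term was called for 3 members against E15.5 and 9 against P10. Its share at E15.5 was 4.083, 3.751 and 3.675% without Cre and 4.378, 4.68 and 4.43% with Cre. At P10 it was 9.071, 9.925 and 9.57% against 10.33, 10.67 and 10.38%, and in the adult 10.76, 11.03 and 10.85% against 12.25, 13.54 and 12.91%. At these ages too the share was thus higher with Cre without overlap, as was that of complex III. Uqcr11 differed by 1.25 at E15.5 and 0.47 at P10, with an interaction term against P10 of 1.06 ± 0.19 (SE; adjusted p = 0.00138) that was not called without the intermediate libraries (adjusted p = 0.0654). Sarcomere genes fell in 3 of 42 at E15.5, 1 of 42 at P10 and 1 of 42 in the adult, against 24 at P0.5. The difference itself was called, lower at P0.5, for 5 of 42 against E15.5 and for 3 against P10.

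Akip1, Nnmt and Creb3l4 differed at P0.5 from E15.5 and P10. Akip1 differed by 1.10 at E15.5 and -0.01 at P10, and its interaction terms were 3.84 ± 0.35 (SE; adjusted p = 2.93e-06) and 4.95 ± 0.35 (SE; adjusted p = 2.71e-08). Creb3l4 differed by 0.47 and 0.09, with interaction terms of -5.11 ± 0.58 (SE; adjusted p = 2.15e-05) and -4.72 ± 0.58 (SE; adjusted p = 5.14e-05). Among the postsynaptic genes Col13a1 differed by -1.72 at E15.5, in the opposite direction to P0.5, with an interaction term of 3.29 ± 0.53 (SE; adjusted p = 0.000711).

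**Figure D5:**
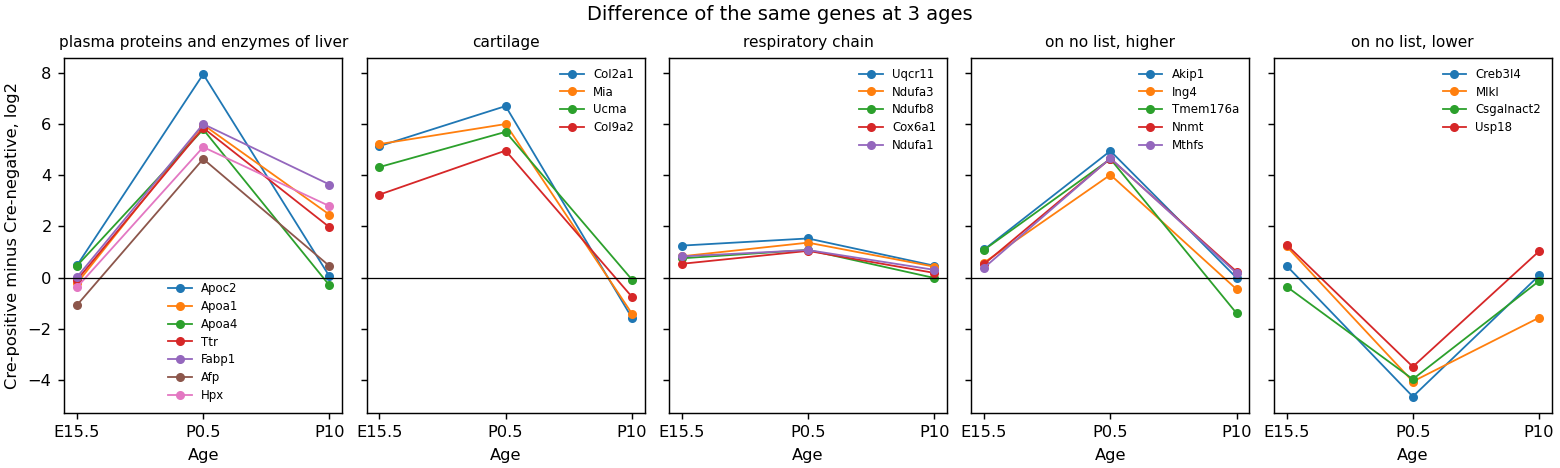
Cre-positive minus Cre-negative difference of log2(CPM + 1) at E15.5, P0.5 and P10 for 25 genes in 5 groups; each line is a gene and lines join the ages only to guide the eye. Liver genes and the genes on no list peak or dip at P0.5, cartilage genes are high at E15.5 and P0.5, and respiratory chain genes differ by at most 1.53 at any of the 3 ages.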

How the data were processed

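RNA purified through the HA tag from P0.5 diaphragm of 3 Cre-negative and 3 Cre-positive samples was analysed, as 1 table of 18845 genes that the authors deposited. Its values are CPM: every deposited column sums to 1000000. Per the submitters' processing notes, the tools named are RSEM 1.2.12 and Bowtie2 2.2.5, with mm10 as the build; order and settings are not given there. Divided by the value of 1 read, each of the 36 columns came out whole for 100% of genes (tolerance 0.1), and these reads served for depth, for zeros and for the count models. In Cre-positive replicate 3 the step is close to a round value, so its depth is an estimate. Against 68.2 to 98.9 M reads (M, 1000000), 3 reads (the floor for a gene at 0) are at most 0.0440 CPM, so the spread between libraries limits the precision; floors cover counting error only.

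The test was limma 3.58.1 (trend, robust; R 4.3.3) on log2(CPM + 1) in all 24 diaphragm libraries, with 1 variance per gene over 8 groups, after a filter that asks 3 or more libraries to reach 1 CPM, and Benjamini-Hochberg adjustment over 13853 genes. The log2 difference understates ratios of genes near 0. The fitting script was tested on simulated data. Same replicate numbers do not pair the samples: correlations of their deviations were -0.0561, -0.0418 and 0.0615. The 45 gene lists (963 members in the table, 3 others not in it) and the rule for named genes were chosen with earlier results of these data known. That rule takes per direction, the 10 largest called differences without overlap whose higher group averages 10 CPM or more, again among those that stay called without the intermediate libraries, up to 4 called members per list or the 2 most abundant, Chat, Slc18a3, Slc5a7, Rpl22, Acta1, Ckm, Ttn, Neb, Myh3 and Myh8, and ends of list ranges; predicted genes were left out, and a few genes it takes are not reported here. Other members and genes are named by their role or, where said, after their values were seen. Lists were described by counts and medians only. Alternatives were a pseudocount of 0.1, no filter, RLE and quantile scaling, edgeR 4.0.16 and DESeq2 1.42.0 on the reads, only the groups compared, the replicate number as a block, and libraries left out; leaving out the intermediate libraries of all ages and the detection alternatives were added after the data were seen. A planned description by protein length was not made, and genomic spans from RefSeq (GRCm38.p6, 18719 of the gene IDs matched) were used instead. The letters searched for HNF1 were shortened after a first count with a longer form.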

Additional observations from a re-analysis of the deposited data

Results flagged for a closer look

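The Cre-positive against Cre-negative difference of 18 named genes at P0.5 was unlike that at E15.5, and that of 14 was unlike that at P10, by limma's interaction term at an adjusted p under 0.05 both in the fit of all 24 diaphragm libraries and without the intermediate libraries of the ages compared. Of 106 named genes, 47 and 55 passed in the fit of all libraries alone. Over all genes tested the shares were 9.9% and 10.3% in that fit, and 0.851% and 0.452% without the intermediate libraries of both ages. Many genes were named for a large difference at P0.5, and the interaction terms use the same P0.5 libraries. That choice by itself favours a larger share among the named genes. Values are P0.5 minus the other age on the log2 scale.

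Against E15.5 the liver genes were higher at P0.5 by 7.46 (Apoc2), 6.18 (Apoa1), 5.32 (Apoa4), 5.70 (Afp), 5.47 (Hpx) and 3.04 (Hpd). Lyz2 was higher by 4.10, Col13a1 by 3.29 and Eif1ad by 4.02. Akip1 was higher by 3.84, Ing4 by 3.42, Tmem176a by 3.54, Nnmt by 4.11 and Mthfs by 4.27. Lower at P0.5 were Creb3l4, with a value of -5.11, Mlkl with -5.27, Mppe1 with -6.06 and Usp18 with -4.76.

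Against P10 the difference was higher by 7.88 for Apoc2, 6.08 for Apoa4, 8.25 for Col2a1 and 7.39 for Mia. It was higher by 1.82 for Decr1, 3.62 for Eif1ad, 4.56 for Lyz2, 4.95 for Akip1, 4.46 for Ing4, 6.02 for Tmem176a, 4.41 for Nnmt and 4.48 for Mthfs. Creb3l4 had a value of -4.72 and Usp18 of -4.50. The cause of these differences between ages was not tested.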

How the results depend on the processing

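The counts of genes higher and lower at P0.5 (1672 and 2172) moved to 2603 and 1295 with RLE scaling, to 3031 and 1034 with edgeR on the reads, and to 629 and 623 in a fit of the P0.5 groups alone, where 10546 genes were tested. DESeq2 called 3586 higher. Without the intermediate libraries of P0.5 they were 1002 and 973, and without those of all ages 89 and 19. The genes unlike E15.5 and P10 (1371 and 1430) were 115 and 62 without the intermediate libraries of both ages, 2 and 5 without those of all ages, and 2672 and 2975 with DESeq2. With E15.5 and P0.5 alone 527 genes were unlike E15.5. With the replicate number as a block they were 885 and 838, and the block called 1442 genes higher and 1811 lower at P0.5, although the numbers do not pair the samples. Leaving out each P0.5 library in turn gave 1281 to 1703 genes higher, 1432 to 2482 lower, 983 to 1926 unlike E15.5 and 956 to 1983 unlike P10; 1432 came without Cre-positive replicate 1. Genes with reads in Cre-positive libraries only numbered 1206 to 2677 when 1 library was left out and 599 at 20 reads or more, and in Cre-negative libraries only 10 to 72 and 6, with 72 and 44 without Cre-negative replicates 1 and 2 and 26 without Cre-positive replicate 2. None of the 106 called named genes changed direction under any alternative run. Without the intermediate libraries of all ages 76 were no longer called, and without those of P0.5 alone 22. The call was lost for 38 of 102 in the fit of the P0.5 groups alone, 16 with edgeR and 9 with RLE scaling. It was lost for 15 without at least 1 of the 6 libraries and for 2 with the block. In every setting 27 stayed called. Fits with fewer libraries or fewer genes tested are not like for like with the fit of all libraries. Leaving out 1 library gave counts both below and above those of that fit. The cause of the shifts was not tested. Depth does not limit named genes above 1 CPM, but zeros in 1 group bound a ratio from below only.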
